A study of Homo sapiens and Mus musculus with 76 samples.

Results

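The DNA replication and S phase genes described here are 34 human genes whose products prepare, start or carry out the copying of chromosomal DNA. They were chosen by gene symbol and not by a threshold on their values, though with earlier results of these data known. The MCM helicase genes were left out by that choice. All 34 were found, among 23571 symbols in each human table. The series compared ways of making full-length RNA sequencing libraries from single cells and small inputs. The 63 human libraries fall into 13 groups, 56 of them from HEK293T, a human embryonic kidney line that carries the SV40 large T antigen and adenovirus early region genes, and 7 from DG-75, a human B cell line from a Burkitt lymphoma. Smart-Seq2 libraries were made from 1 ng (3 libraries), 100 pg (3) and 10 pg (2) of HEK293T total RNA, from pools of 100, 50 and 10 lysed HEK293T cells (3 each), from single HEK293T cells (7) and from single DG-75 cells (7). Further single HEK293T cells were processed with variants 1 (8 cells), 2 (8), 3 (6) and 4 (6) of Smart-Seq2 and with the older kit-based SMART-Seq (4). What distinguishes the variants is not stated in the labels. No label names a treatment. No label names a culture, so a p-value here speaks only to how much the libraries of a group vary, and that variation may be technical.

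A human chromosome is copied from many origins. In G1 the origin recognition complex (ORC1, ORC6) and the loaders CDC6 and CDT1 place the helicase on DNA, a step called licensing that geminin (GMNN) later blocks. At the start of S phase the kinase CDC7 with its activator DBF4, and then CDC45 and the GINS proteins, switch the helicase on, and polymerases, the sliding clamp PCNA and the clamp loader RFC extend the new strands. Many of these genes are driven by E2F factors, which the retinoblastoma protein holds back until cyclin E (CCNE1, CCNE2) and its kinase release them. The SV40 large T antigen binds the retinoblastoma protein.

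Reads assigned to genes, in M (1000000 reads), ranged from 1.88 to 4.10 M in the RNA libraries, from 3.23 to 5.55 M in the pools, from 5.29 to 27.9 M in single HEK293T cells and from 2.24 to 7.88 M in DG-75 cells. Levels are reads per 1000000 of these reads (CPM), and levels between genes are compared only as RPKM, which also divides by transcript length. The summed level of 8 B cell markers lay between 781 and 7967 CPM in the DG-75 cells and between 0.08 and 23.3 CPM in the Smart-Seq2 HEK293T cells, where MS4A1, CD79B, CD74 and CD22 had no read. Of 6 markers chosen for HEK293T, LHX1, PAX2 and KRT18 had no read in DG-75 cells, and all 6 summed to between 0 and 46.2 CPM there, highest in cell 6, against 91.3 to 276 CPM in the Smart-Seq2 HEK293T cells. In the latter 3 of the 6 had a mean of at least 20 CPM. The lowest HEK293T cell was at 24.1 CPM in variant 3 and at 18.9 CPM in SMART-Seq, below DG-75 cell 6, and at 148.8 CPM or more in variants 1, 2 and 4. T cell markers had no read in the Smart-Seq2 HEK293T or the DG-75 cells. The 100-cell libraries 1 and 2 were nearly alike, with a mean chi-square per gene of 1.75 against 19.0 and 18.7 for either with library 3. They differed by more than counting error and were kept as separate samples.

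Promoters were taken from RefSeq (GRCh38.p14), as 250 bases before to 50 after each transcript start, for 32 of the 34 genes by symbol. An E2F-type motif, written TTTGGCGC or TTTCCCGC and searched on both strands, was present in 13 of the 32 (40.6%) and in 2.31% of all 27305 promoters of this length. The CCAAT box, read as CCAAT on either strand, was in 18 (56.2%) and in 35.7% of all promoters. TTTGAA, the core of the cell cycle homology region of many mitotic promoters, was in 2 (6.2%), DBF4 and RRM1, and in 15.4% of all. The promoters of 5 of these genes are shown, with E2F-type matches in capitals, or TTTGAA on the opposite strand in DBF4. They do not stand for all members: GMNN, UNG, CDC7, RRM2, RFC4 and TK1, for example, have no E2F-type match in this window. Those of PCNA (chr20:5126573-5126872, minus strand), E2F1 (chr20:33686336-33686635, minus strand) and UHRF1 (chr19:4909251-4909550, plus strand) have a match that starts at position -59, -20 and -14 from the transcript start. That of CDC6 (chr17:40287629-40287928, plus strand) has one at 7. DBF4 (chr7:87876243-87876542, plus strand) has no match to the E2F-type letters in this window and holds TTTGAA from position -3. A match is a string of letters and not a measured binding site.
PCNA: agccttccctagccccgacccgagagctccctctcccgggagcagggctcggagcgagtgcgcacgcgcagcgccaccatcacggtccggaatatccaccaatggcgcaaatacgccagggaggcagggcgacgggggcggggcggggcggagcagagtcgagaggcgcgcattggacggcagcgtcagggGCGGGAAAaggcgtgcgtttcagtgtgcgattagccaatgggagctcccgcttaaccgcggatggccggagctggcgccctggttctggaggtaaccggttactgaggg
E2F1: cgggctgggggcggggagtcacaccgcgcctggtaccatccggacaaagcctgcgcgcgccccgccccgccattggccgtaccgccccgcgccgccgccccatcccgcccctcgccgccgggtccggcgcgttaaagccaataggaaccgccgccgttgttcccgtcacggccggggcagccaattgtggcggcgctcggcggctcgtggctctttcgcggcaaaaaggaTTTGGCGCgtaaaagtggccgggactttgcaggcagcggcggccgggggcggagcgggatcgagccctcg
UHRF1: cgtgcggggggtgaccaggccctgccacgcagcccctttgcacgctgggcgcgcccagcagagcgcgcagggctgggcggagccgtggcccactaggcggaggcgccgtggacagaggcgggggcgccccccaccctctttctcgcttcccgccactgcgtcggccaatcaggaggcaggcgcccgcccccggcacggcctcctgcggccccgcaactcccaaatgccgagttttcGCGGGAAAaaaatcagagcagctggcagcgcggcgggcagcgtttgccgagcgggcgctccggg
CDC6: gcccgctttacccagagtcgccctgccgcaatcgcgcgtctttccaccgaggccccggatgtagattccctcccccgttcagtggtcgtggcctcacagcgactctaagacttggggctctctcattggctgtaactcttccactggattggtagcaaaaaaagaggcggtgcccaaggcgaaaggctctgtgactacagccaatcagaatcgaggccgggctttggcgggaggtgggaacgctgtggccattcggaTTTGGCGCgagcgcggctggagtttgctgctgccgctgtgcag
DBF4: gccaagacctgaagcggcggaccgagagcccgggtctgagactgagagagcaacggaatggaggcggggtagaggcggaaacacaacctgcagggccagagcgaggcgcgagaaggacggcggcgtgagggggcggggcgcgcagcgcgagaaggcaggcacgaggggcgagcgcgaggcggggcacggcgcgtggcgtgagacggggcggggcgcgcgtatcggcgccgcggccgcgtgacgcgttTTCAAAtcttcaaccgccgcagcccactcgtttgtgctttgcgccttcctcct

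Per length, geminin and PCNA were the most abundant of these genes and the polymerase POLE, the transcription factor E2F1 and UHRF1 the least. In the 100-cell pools GMNN had a median of 799 RPKM (475 to 889) and PCNA 569 RPKM (515 to 601). GINS2, a GINS subunit, followed at 287 RPKM (274 to 365), SLBP, which binds histone mRNA, at 211 RPKM (192 to 228), and the clamp loader subunit RFC4 at 195 RPKM (191 to 207). The ranges of SLBP and RFC4 overlapped, and those of GMNN and PCNA did too. UHRF1, which recruits maintenance methylation to newly copied DNA, stood at 6.13 RPKM (5.29 to 6.73), E2F1 at 3.54 RPKM (3.37 to 4.09) and POLE, the catalytic subunit of the leading-strand polymerase, at 2.26 RPKM (1.90 to 3.53). GMNN and PCNA also led in 1 ng of RNA, at medians of 337 and 326 RPKM. There CCNE1 was lowest, at 1.89 RPKM, and UHRF1 stood at 55.6 RPKM and POLE at 15.2 RPKM. The lengths behind the authors' RPKM differed from the annotated ones for UHRF1 (ratio 0.48) and GINS2 (0.43), and also for PCNA (0.65), and a shorter length raises a gene on this scale.

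**Figure D1:**
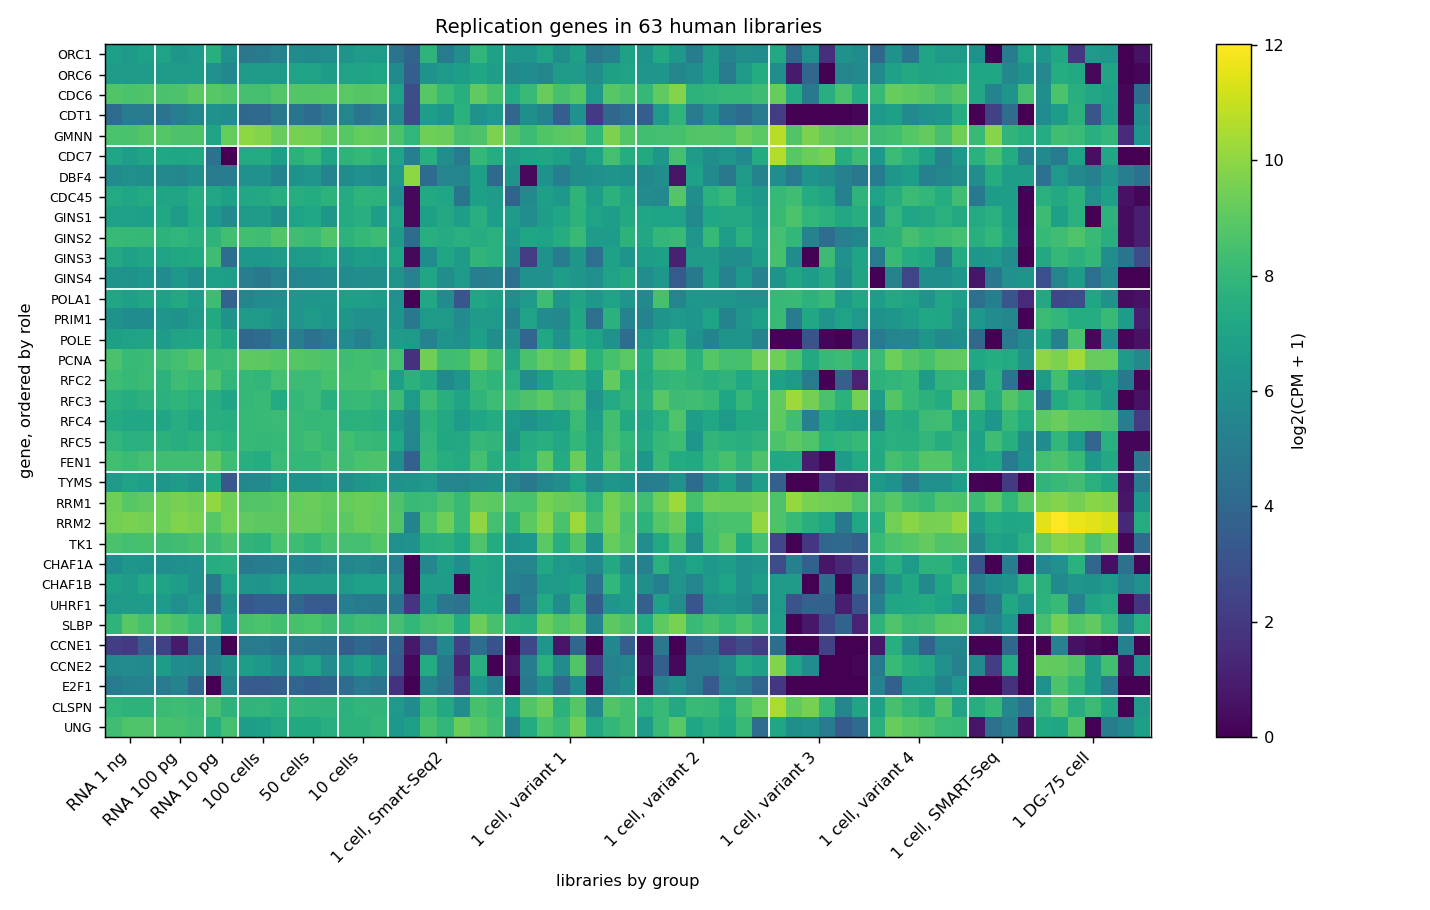
Level of each of the 34 genes (rows, ordered by role) in each of the 63 human libraries (columns, by group), as log2(CPM + 1). The RNA and pool libraries form more even bands than single cells, which vary gene by gene. Among the exceptions, the 10 pg libraries differ from each other in POLA1, GINS3 and CDC7, and UHRF1 is lower in 100 cells than in 1 ng of RNA. Dark cells mark CDT1, POLE, TYMS and E2F1 in variant 3 and many genes in the last 2 DG-75 cells.

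The summed level of the 34 genes was steady in bulk input and spread widely in single cells. It was 6452 ± 51.7 CPM (SD, n = 3) in the 100-cell pools, 6923 ± 224 in 50 cells, 7005 ± 347 in 10 cells, 6866 ± 162 in 1 ng and 7020 ± 153 in 100 pg of RNA. The 10 pg libraries were at 6307 and 7459 CPM. In single Smart-Seq2 HEK293T cells the sum ran from 2792 to 8909 CPM with a median of 5531, and its coefficient of variation was 36.4%, against 0.8% to 5.0% in the pools. A library of pooled cells averages over cells, and in such a library fewer cells in S phase and less RNA per cell cannot be told apart.

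**Figure D2:**
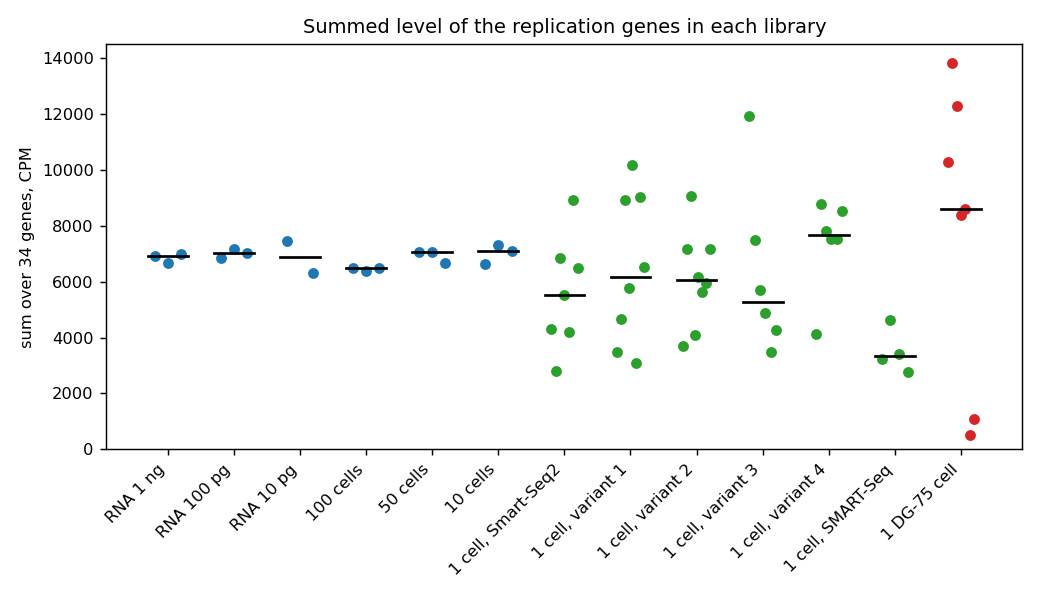
Summed level of the 34 genes in each library (points, CPM, linear axis from 0) by group, with a bar at the group median. The 17 RNA and pool libraries lie close together, single HEK293T cells spread from 2764 to 11933 CPM, and DG-75 holds both the highest cells and the 2 lowest.

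Lysed cells and purified RNA of the same line gave a different balance among these genes. Against 1 ng of RNA, 9 of the 34 rose and 9 fell in 100 cells (edgeR quasi-likelihood test with Benjamini-Hochberg adjustment under 0.05), when 29.7% of the 11487 genes tested rose and 33.1% fell, so the called share of the members is close to that of all genes. The median log2 difference was 0.02 for the members and -0.03 for all genes. UHRF1 was at 8.55, 10.996 and 10.984 CPM in the 100-cell pools and at 88.8, 96.6 and 95.1 CPM in 1 ng of RNA, a log2 difference of -2.97 ± 0.22 (SE, adjusted p = 2.3e-09). POLE was at 15.3, 18.1 and 28.5 CPM in the pools and at 111, 122 and 127 CPM in RNA (-2.30 ± 0.22, adjusted p = 6.8e-08). Both genes lay well below every RNA library in all 3 pools. UNG, the glycosylase that removes uracil from DNA, stood at 104, 113 and 153 CPM in pools and 322, 414 and 414 CPM in RNA (-1.40 ± 0.18, adjusted p = 2.1e-06), again without overlap. On the other side CCNE1, a cyclin E, was at 31.2, 31.3 and 24.7 CPM in pools and at 3.72, 3.14 and 9.81 CPM in RNA (2.61 ± 0.33, adjusted p = 2.2e-06). GMNN was at 998, 895 and 594 CPM in pools and at 384, 376 and 446 CPM in RNA (1.28 ± 0.19, adjusted p = 1.1e-05). RFC4 was at 263, 269 and 294 CPM against 166, 145 and 141 CPM (1.10 ± 0.17, adjusted p = 1.5e-05). In these 3 genes each pool was above each RNA library.

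By role, the licensing genes split: ORC1 fell (log2 difference -1.53) and GMNN rose, while ORC6 (0.15), CDC6 (0.12) and CDT1 (-0.18) did not pass the test. Of the origin firing genes GINS2 rose (0.65) and GINS4 fell (-0.92), and CDC7 (0.46), DBF4 (0.18), CDC45 (0.27), GINS1 (-0.25) and GINS3 (-0.38) did not pass. Among polymerases and clamp proteins PCNA (0.89), PRIM1 (0.63), a primase subunit, RFC3 (0.48), RFC4 and RFC5 (0.56) rose, POLA1 (-1.05), which extends primers, and POLE fell, and RFC2 (0.16) and the flap nuclease FEN1 (-0.33) did not pass. In nucleotide supply TYMS, which makes thymidylate, fell (-0.59), and the ribonucleotide reductase subunits RRM1 (-0.09) and RRM2 (-0.27) and thymidine kinase TK1 (-0.20) did not pass. TYMS is uncertain: 967 of its exonic bases are shared with ENOSF1 on the other strand, and the strand setting of the counting is not given in the sources used here. In chromatin assembly CHAF1A fell (-0.89) with UHRF1, and CHAF1B (-0.31) and SLBP (0.27) did not pass. E2F1 fell (-1.56) while CCNE1 and CCNE2 (0.85) rose. CCNE2 shares 1629 exonic bases with INTS8 on the other strand and is uncertain in the same way. The fork checkpoint protein CLSPN (0.24) did not pass. Of 40 other replication genes, among them the MCM genes, 12 rose and 15 fell, with a median of -0.28.

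The split moved with transcript length and base composition. Over the 34 members the log2 difference had a Spearman correlation of -0.48 with GC content and of -0.52 with length (-0.41 and -0.31 over 11395 genes), a description over genes that share the same 6 libraries. After a smooth trend with length and GC was removed, 4 members rose and 16 fell, when 20.7% and 39.4% of all genes did. Of the 9 that had risen, GMNN (-0.56), PCNA (-0.43), PRIM1 (-1.01), RFC3 (-0.56), RFC4 (-0.18) and CCNE2 (-0.19) turned negative, and CCNE1 (2.66) and GINS2 (0.70) remained called. Of the 9 that had fallen, CHAF1A (0.35) turned positive and E2F1 (-0.31) was no longer called, while UHRF1 stood at -1.75, UNG at -1.56, ORC1 at -1.12 and POLE at -1.08. Scaling by library totals in place of TMM (trimmed mean) factors moved the median of all genes to -0.26 and gave 6 higher and 14 lower members, with 21.8% and 39.5% of all genes.

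The same contrast with less material had fewer calls. In 10 cells against 100 pg of RNA 2 members rose and 6 fell, when 7.81% of 11671 genes rose and 11.5% fell, with a median log2 difference of 0.07 for the members and -0.02 for all genes. The kinase CDC7 was at 221, 259 and 209 CPM in cells and 146, 137 and 142 CPM in RNA (0.67 ± 0.14, adjusted p = 0.0042), and RFC5 at 334, 284 and 252 against 208, 177 and 208 CPM (0.53 ± 0.14, adjusted p = 0.016). Both were higher in each pool than in each RNA library. UHRF1 was at 35.3, 28.6 and 28.5 against 98.3, 64.5 and 87.0 CPM (-1.45 ± 0.24, adjusted p = 0.0010), and POLE at 55.0, 37.8 and 64.3 against 99.0, 128 and 132 CPM (-1.21 ± 0.23, adjusted p = 0.0028). UNG was at 215, 220 and 257 against 370, 349 and 308 CPM (-0.59 ± 0.13, adjusted p = 0.0067). These 3 genes were lower in each pool than in each RNA library, as in the larger input, in libraries that the 2 comparisons do not share. GINS3 (-0.66), RRM2 (-0.44) and CLSPN (-0.39) fell too, and the other 26 members did not pass. Of the other replication genes 4 rose and 8 fell. DESeq2 called 6 higher and 6 lower, when 23.0% of all genes passed in either direction, and limma 4 and 5 (10.6% and 9.96%). Without the 10-cell library 1 the counts were 1 higher and 2 lower, and RFC5 and UNG no longer passed. Without the 100 pg library 3 or without the 10-cell library 3 they were 2 and 3. With the length and GC trend removed 0 rose and 8 fell (4.43% and 11.1% of all genes), and POLE (-0.56), CLSPN (-0.34), RFC5 (0.32) and CDC7 (0.35) did not pass.

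Between pools of 100 and 10 cells, all lysed directly, 6 members were higher and 7 lower in 100 cells, when 13.6% of 11514 genes were higher and 17.4% lower, with a median of -0.11 for the members and -0.05 for all genes. PCNA was at 530, 502 and 460 CPM in 100 cells and 311, 336 and 314 CPM in 10 cells (0.90 ± 0.14, adjusted p = 0.00037). CCNE1 was at 31.2, 31.3 and 24.7 against 10.6, 15.0 and 11.8 CPM (1.48 ± 0.26, adjusted p = 0.00076), and RFC4 at 263, 269 and 294 against 199, 212 and 186 CPM (0.73 ± 0.14, adjusted p = 0.0016). In the other direction ORC1 was at 26.5, 28.9 and 39.8 against 73.1, 95.4 and 91.6 CPM (-1.19 ± 0.21, adjusted p = 0.00094), UHRF1 had a log2 difference of -1.34 ± 0.25 (adjusted p = 0.0013), and POLA1 was at 42.8, 56.1 and 58.7 against 113, 108 and 99.3 CPM (-0.77 ± 0.18, adjusted p = 0.0063). None of these 6 genes had overlapping groups. GMNN (0.92), GINS2 (0.74) and SLBP (0.58) were also higher, and POLE (-1.08), UNG (-0.64), E2F1 (-0.94) and GINS1 (-0.64) also lower, and the other 21 members did not pass. Of the 40 other replication genes 6 were higher and 10 lower. Library totals moved the median of all genes to -0.31 and gave 5 higher and 13 lower members (7.39% and 27.1% of all genes), and removal of the trend gave 3 and 10 (10.6% and 20.1%), with PCNA at 0.14, RFC4 at 0.01 and GMNN at -0.09. Without the 100-cell library 1 there were 6 higher and 2 lower members, and POLA1 (-0.63) no longer passed. This comparison uses the same 100-cell libraries as the one with 1 ng of RNA.

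Pools of 100 and 50 cells did not separate in the unpaired test, which called 0 members higher and 0 lower, and 0.0% of 11354 genes in either direction, with 1005 genes at an unadjusted p under 0.05 and 75 genes called by DESeq2. As an alternative, the replicate number was used as a block, since deviations of same-numbered libraries correlated at 0.14, 0.50 and 0.67. Reading the numbers as pairs rests on the same data, and the labels name no pairing. The 100-cell library 1 correlated more with 50-cell library 2 (0.44) than with its own number. The adjusted p-values given next hold only if the numbers are pairs. With this block, 3 members rose and 2 fell, when 8.38% and 5.56% of all genes did. GMNN stood at 740, 711 and 517 CPM in 50 cells, library by library below its 998, 895 and 594 CPM in 100 cells (0.52 ± 0.13, adjusted p = 0.0026), and PCNA at 458, 429 and 394 CPM below 530, 502 and 460 (0.42 ± 0.12, adjusted p = 0.0088). CCNE1 was at 26.2, 23.9 and 22.1 CPM in 50 cells (0.46 ± 0.15, adjusted p = 0.031). ORC1, at 54.7, 50.4 and 58.2 CPM in 50 cells (-0.59 ± 0.13, adjusted p = 0.00080), and POLA1, at 75.8, 82.0 and 84.6 CPM (-0.43 ± 0.12, adjusted p = 0.0065), were lower in 100 cells in each pair.

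**Figure D3:**
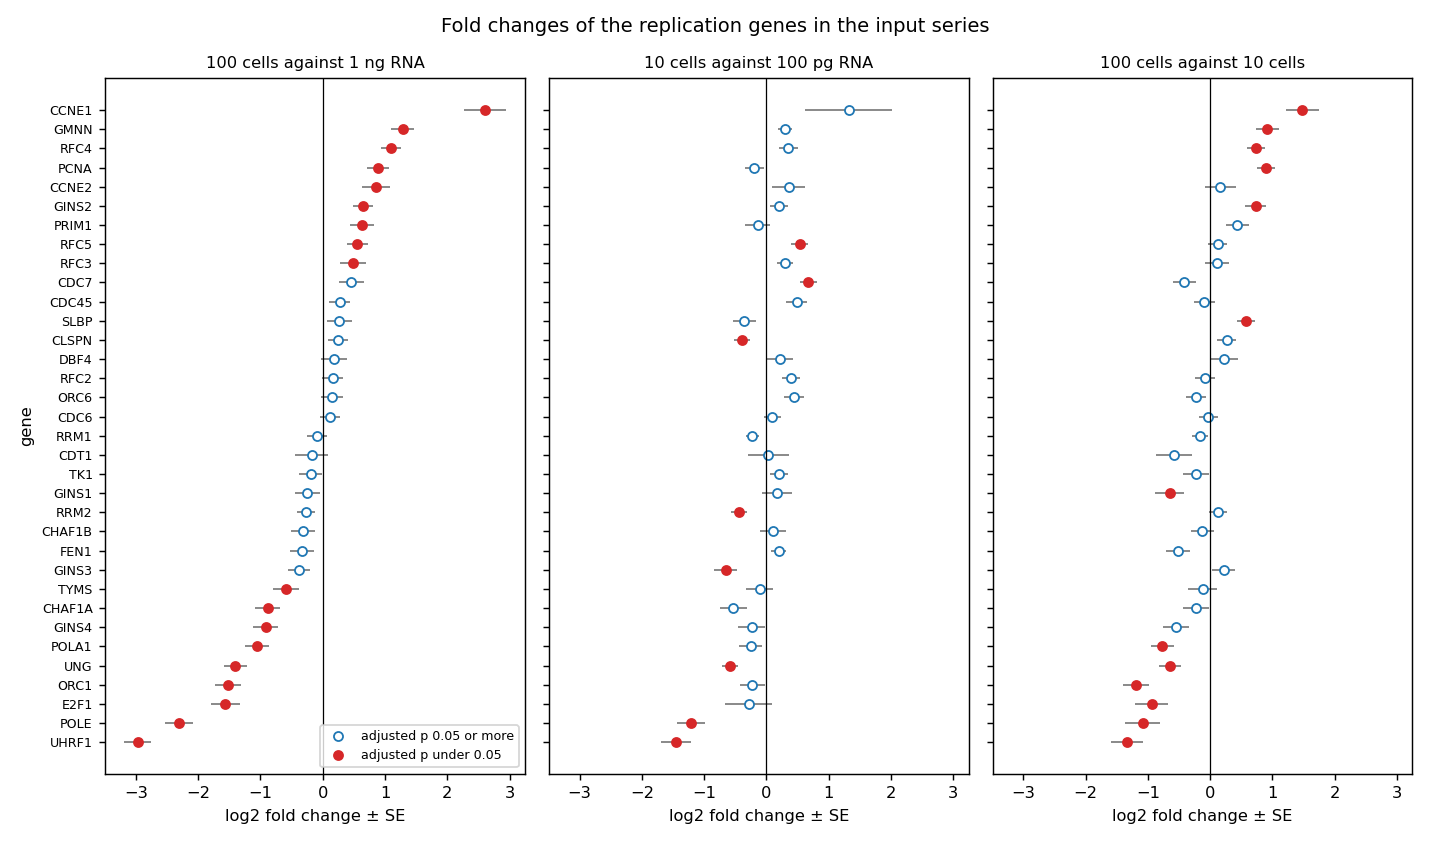
Log2 fold change with its standard error (horizontal bars) for each of the 34 genes, ordered by the left panel, in 3 comparisons with 3 libraries a group. Filled points passed an adjusted p of 0.05. UHRF1 and POLE lie furthest left among the called genes in the left and middle panels, and CCNE1 furthest right in the left and right ones.

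Dilution of purified RNA left few calls among these genes. Between 1 ng and 100 pg no member was called, and 0.0% of 11469 genes were higher and 0.0262% lower in 1 ng. In that test 888 genes had an unadjusted p under 0.05, and DESeq2 called 34 genes, none a member. Between 1 ng and 10 pg 0 members were higher, when 16.9% of 11087 genes were, and 1 was lower, when 1.54% were. CHAF1A, the large subunit of the chromatin assembly factor, was at 56.6, 78.1 and 72.7 CPM in 1 ng and at 171 and 189 CPM in 10 pg (-1.33 ± 0.23, adjusted p = 0.019). The groups did not overlap, and the log2 difference was -1.22 to -1.43 with each 1 ng library left out in turn. In those fits no gene at all was called. The 10 pg libraries differed greatly from each other, with POLA1 at 313 and 12.5 CPM, GINS3 at 307 and 19.0 CPM, and CDC7 at 21.9 and 0 CPM. Without the 10 pg library 1 the counts were 12 higher and 3 lower, when 51.3% and 20.7% of all genes were called. Without the 10 pg library 2 they were 10 and 12 (47.7% and 20.3%), in each case with 1 library on that side that is assumed to vary like the other group.

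The gap between cells and RNA differed with the amount of input for 9 members. The interaction of source and input, which sets 100 cells over 1 ng of RNA against 10 cells over 100 pg, was positive for 4 and negative for 5, when 7.23% and 10.7% of 12192 genes were, with a median of -0.20 for the members and -0.06 for all genes. PCNA, whose values are given above, was higher in pools than in RNA at the larger input (0.89) and did not pass at the smaller (-0.19), an interaction of 1.09 ± 0.23 (adjusted p = 0.0024). For GMNN the differences were 1.28 and 0.30 (0.98 ± 0.22, adjusted p = 0.0045). UHRF1 was lower in cells at both inputs, by a log2 difference of -2.97 and -1.45 (interaction -1.51 ± 0.31, adjusted p = 0.0020), and ORC1 was lower at the larger input (-1.53) and at -0.23 at the smaller (-1.29 ± 0.29, adjusted p = 0.0042). RFC4 (0.75) and CLSPN (0.64) were the other positive members, and UNG (-0.81), POLE (-1.08) and POLA1 (-0.79) the other negative ones. With library totals the counts were 2 and 8 (3.61% and 16.3% of all genes). With the trend removed they were 1 and 5 (3.79% and 8.84%), GMNN was at -0.11, and PCNA (0.32), RFC4 (0.01), POLE (-0.53) and UHRF1 (-0.76) did not pass. Without the 1 ng library 3 the counts were 2 positive and 2 negative.

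Each group of single cells counts as 1 sample, because no culture is named, so single cells are described with no test. Among the 7 Smart-Seq2 HEK293T cells the most variable members with a mean of at least 20 CPM were CHAF1B, CCNE2, PCNA and POLA1, with an SD of log2(CPM + 1) between 2.65 and 3.27, and the least variable were TYMS (0.36) and RRM1 (0.41). CHAF1B, the middle subunit of the chromatin assembly factor, ranged from 0 to 148 CPM with a median of 96.5, CCNE2 from 0 to 192 CPM with a median of 9.24, PCNA from 2.27 to 671 CPM with a median of 342, and POLA1 from 0 to 145 CPM with a median of 67.5. TYMS stayed between 45.3 and 90.2 CPM and RRM1 between 269 and 548 CPM. Cell 2 set the low end for CHAF1B, which was at 0 in cell 5 too, for PCNA and for POLA1, and CCNE2 was at 0 in cell 7. Without cell 2 the SD was 0.47 for PCNA, below that of most members, 1.48 for POLA1, 2.75 for CHAF1B and 3.13 for CCNE2. The least variable were then PRIM1 (0.29, and 0.64 with cell 2) and GINS1 (0.36, and 2.57 with cell 2). TYMS followed at 0.37, and RRM1 was at 0.41.

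Cell 2 stood apart in the other direction for DBF4, the activator of the CDC7 kinase, which was at 1010 CPM there and between 16.5 and 108 CPM in the other 6 cells. The same cell had a summed level of 25 mitosis genes of 28869 CPM, against 4021 to 14010 CPM in the other cells, the lowest sum of the replication genes (2792 CPM) and the lowest depth of the group (5.29 M reads). Over the 7 cells the log2 sums of replication and mitosis genes had a Pearson correlation of -0.88 and a Spearman correlation of -0.86, and of -0.69 with the 2 cells farthest from the median left out. The Pearson correlation was -0.75 in variant 1 (8 cells, -0.11 after that step) and -0.50 in variant 2 (8 cells, -0.54). It was -0.73 in variant 3 (6 cells, -0.27) and -0.56 in variant 4 (6 cells, 0.90), so outside Smart-Seq2 and variant 2 it rests on few cells. Spearman correlations were weaker, at -0.57, -0.40, -0.49 and 0.09 in variants 1 to 4. Each point is 1 cell and both sums are shares of its reads. In the 7 Smart-Seq2 cells the sum of the replication genes also had a Pearson correlation of 0.86 and a Spearman correlation of 0.89 with the genes detected at 1800000 reads, of which cell 2 had 9448 and the others 10608 to 11887. In variant 2 that sum had a Pearson correlation of -0.62 with gene reads and of -0.59 with the genes detected at that depth. In variants 1, 3 and 4 these correlations lay between -0.32 and 0.41. The part of depth and detection in the result was not tested.

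**Figure D4:**
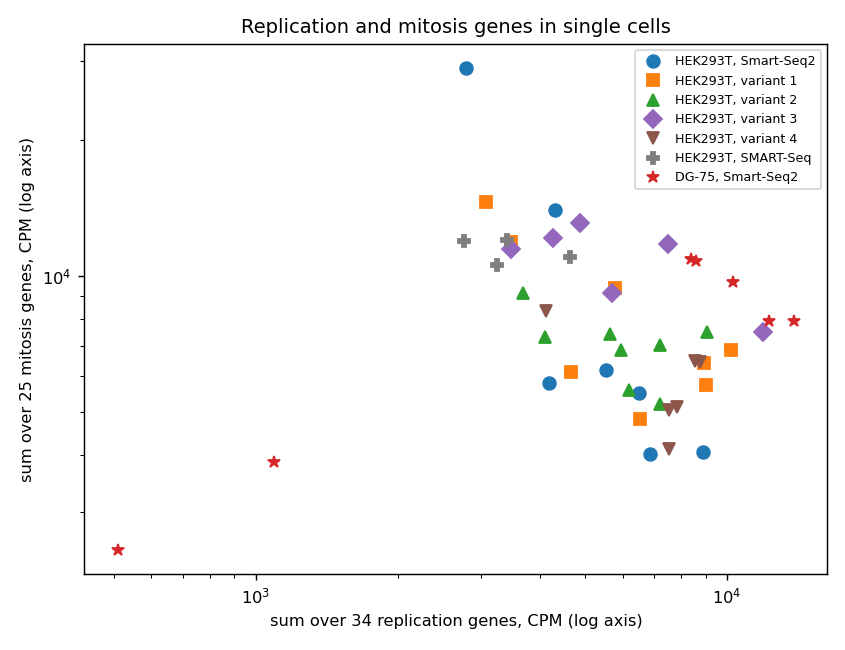
Summed level of the 34 replication genes (horizontal) and of 25 mitosis genes (vertical) in each single cell, both in CPM on log axes, by line and protocol. Smart-Seq2 cell 2 lies at the upper left with 28869 CPM on the vertical axis, and the 2 DG-75 cells at 510 and 1093 CPM on the horizontal axis lie at the lower left.

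Members differed in how far they moved together from cell to cell. Over the 39 single HEK293T cells, with each gene centred within its protocol on the log2(CPM + 1) scale, PCNA had the highest correlation with the mean of the other members (0.80), followed by UHRF1 (0.77), RFC5 (0.77), CDC45 (0.75) and RRM2 (0.74). DBF4 (-0.21), POLE (-0.11) and GINS4 (0.16) were lowest, and DBF4 had the highest correlation of all members with the mean of the mitosis genes (0.40). Smart-Seq2 cell 2 had the highest DBF4 level and the highest mitosis sum of its group, and neither DBF4 correlation was computed without it. Of 561 pairs of members 104 had a correlation over 0.5 and 66 one below 0, with a median of 0.32. CDC45 and GINS1, both parts of the active helicase, were the pair most alike (0.84), and GINS1 and GINS2 followed (0.83). CDC45 and GINS1 each had 1 read in Smart-Seq2 cell 2 and 1 in SMART-Seq cell 4, where GINS2 had 94 and 2. PCNA had 12 reads in Smart-Seq2 cell 2. Cells this low can weigh heavily on a correlation, and no value without them was computed. Genes of 1 cell share its library and depth, whose part in these values was not tested.

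DG-75 cells fell into 5 cells with high and 2 cells with very low levels of these genes. The summed level was 8395 to 13843 CPM in cells 1 to 5 and 510 and 1093 CPM in cells 6 and 7. Both low cells had 5.95 and 5.91 M reads, inside the range of the others, and 9109 and 8550 genes detected at 1800000 reads, against 8867 to 9994. Their B cell markers summed to 7892 and 781 CPM, and their mitosis genes to 2465 and 3859 CPM, against 7937 to 10866 CPM in the others. RRM2, the small subunit of ribonucleotide reductase, was at 2860, 4139, 3192, 2860 and 2456 CPM in cells 1 to 5 and at 1.51 and 170 CPM in cells 6 and 7. TK1 was at 595, 909, 798, 388 and 611 CPM, then at 0.168 and 17.3 CPM. The members with the highest SD on the log2(CPM + 1) scale were RRM2 (3.94), GINS1 (3.85), TK1 (3.67) and GINS2 (3.65), all of them near 0 in cell 6. CHAF1B (0.74) and DBF4 (0.77) had the lowest, with 39.7 to 207 CPM and 21.8 to 85.9 CPM over the 7 cells. The cells stand in separate clusters, so no correlation over them is given.

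Against Smart-Seq2 HEK293T cells the members in DG-75 went in both directions, at shares close to those of all genes. Over all reads of each group the summed level was 7635 CPM (95% Poisson interval 7607 to 7664) in DG-75 and 5598 CPM (5582 to 5615) in HEK293T, a log2 ratio of 0.45, and 0.96 without cells 6 and 7. The intervals cover counting error only. Of the 33 members with at least 20 CPM in the higher group 8 were more than 1 higher on the log2 scale and 7 more than 1 lower, when 24.9% and 26.2% of 8751 genes were, and the median log2 ratio was 0.07 over these members and -0.004 over all genes. The ratio was highest for CCNE2 (285 against 51.7 CPM, log2 ratio 2.44), E2F1 (124 against 24.7 CPM, 2.29), RRM2 (2203 against 465 CPM, 2.24) and TK1 (461 against 171 CPM, 1.43). RFC4 (1.38), TYMS (1.32), PRIM1 (1.20) and UHRF1 (1.11) were the others above 1. It was lowest for CDC7 (41.1 against 125 CPM, -1.58), GMNN (180 against 525.6 CPM, -1.54), UNG (107 against 305 CPM, -1.50) and GINS4 (25.1 against 70.2 CPM, -1.45), and RFC3 (-1.40), DBF4 (-1.26) and CDC6 (-1.01) were also below -1. The cells of the 2 lines overlapped for all 34 members, whereas 8.88% of the 8751 genes had no overlap in either direction. Without DG-75 cells 6 and 7 the counts were 10 and 3 (24.6% and 27.3% of 8676 genes). The ratios above 1 were those of CCNE2 (2.94), E2F1 (2.85), RRM2 (2.79), TK1 (1.98), RFC4 (1.91), TYMS (1.84), UHRF1 (1.67), PRIM1 (1.63), RRM1 (1.12) and PCNA (1.02). For RRM2, RFC4, TYMS, PRIM1 and RRM1 each remaining DG-75 cell lay above each HEK293T cell. The share of all genes that did so was not computed. Cells 6 and 7 were left out for their low levels of the members, which by itself raises the ratios and lessens the overlap. Without DG-75 cell 2, the deepest, the counts were 4 and 11, and the ratio was 0.99 for E2F1, 0.98 for TK1, 0.99 for TYMS and 0.60 for UHRF1. The CDC7 ratio was -2.31 without DG-75 cell 5, and the CCNE2 ratio 3.12 without HEK293T cell 3. The DBF4 ratio was -0.11 without HEK293T cell 2.

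SMART-Seq cells had lower levels of TYMS, UNG and SLBP than Smart-Seq2 cells, while the share of members that were lower was close to that of all genes. The summed level was 3466 CPM (3451 to 3481), a log2 ratio of -0.69 (-0.34 with TMM factors), and 0 members were more than 1 higher and 12 more than 1 lower, when 19.5% and 35.4% of 8104 genes were. The median log2 ratio was -0.64 over 33 members and -0.33 over all genes. TYMS was at 0.078, 0, 3.18 and 0 CPM in the 4 cells, against 45.3 to 90.2 CPM (median 62.5) in the 7 Smart-Seq2 cells (log2 ratio -5.08). UNG was at 0.548, 20.4, 33.97 and 0.419 CPM, against 83.3 to 588 CPM with a median of 326 (-4.32). SLBP was at 64.6, 39.6, 83.2 and 0.060 CPM, against 168 to 625.3 CPM with a median of 359 (-2.93). In these 3 genes, of the 33 members measured, each SMART-Seq cell lay below each Smart-Seq2 cell, as it did for 9.39% of all genes, and no member lay above, when 6.03% of genes did. E2F1, at 0, 0, 2.28 and 0 CPM (-3.97), and CDT1, at 0, 4.19, 18.5 and 0 CPM (-3.68), overlapped the lowest Smart-Seq2 cells. The highest ratios were those of CDC7 (0.53), RFC3 (0.44), RFC4 (0.33) and CHAF1B (0.25), all with overlap, and those of RFC4 and CHAF1B fell below 0 without SMART-Seq cell 3 or 4, respectively. Without SMART-Seq cell 3 the ratio was -5.98 for TYMS, -5.33 for UNG, -4.68 for E2F1 and -5.32 for CDT1. Without Smart-Seq2 cell 2 the DBF4 ratio went from -0.12 to 1.02, and the counts were 1 and 13.

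In variant 3 the members lay on both sides of Smart-Seq2, at shares close to those of all genes, with CDT1, POLE, SLBP and TK1 lowest and CDC7 highest. The summed level was 6280 CPM (6265 to 6295), a log2 ratio of 0.17, or 0.75 with TMM factors between the group sums. Of 33 members 7 were more than 1 higher and 15 more than 1 lower, when 21.6% and 39.7% of 7980 genes were, and the median was -0.46 over these members and -0.34 over all genes. CDT1 had a median of 0 CPM and a maximum of 3.40 CPM over the 6 cells, against a Smart-Seq2 range of 5.87 to 202 CPM with a median of 79.7 (log2 ratio -6.04). POLE reached at most 7.75 CPM with a median of 0.099, against 40.9 to 109 CPM (-4.61). SLBP ran from 0.045 to 107 CPM with a median of 3.29 (-4.52), and TK1 from 0 to 16.9 CPM with a median of 8.29, against 63.4 to 413 CPM (-4.35). For these 4 genes, and for TYMS (-4.32), all variant 3 cells lay below all Smart-Seq2 cells, as they did for 13.2% of all genes. They lay above for no member and for 2.19% of genes. The ratio was -6.43 for SLBP without variant 3 cell 1 and -5.78 for POLE without variant 3 cell 3. CDC7 ran from 179 to 1572 CPM with a median of 544, against 30.6 to 254 CPM with a median of 127 (2.42). CLSPN (1.62), POLA1 (1.58) and RFC3 (1.49) followed, and all 4 ranges overlapped those of Smart-Seq2.

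In variant 3 and in SMART-Seq the ratio moved with GC content. Over 33 members the log2 ratio had a Spearman correlation with the GC content of the transcript of -0.75 in variant 3 (-0.59 over 7951 genes) and of -0.48 in SMART-Seq (-0.38 over 8070 genes). Correlations with length were 0.07 and 0.02. In variant 3 the 11 members of lowest GC content, 35.4% to 43.6%, had a median log2 ratio of 1.10 and the 10 measured members of highest GC content, 50.9% to 64.9%, one of -2.48. In SMART-Seq these medians were -0.12 and -1.32. These are descriptions across genes of the same cells. In variant 4 the correlation was 0.34, in DG-75 0.14 and in variants 1 and 2 it was within 0.05 of 0.

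**Figure D5:**
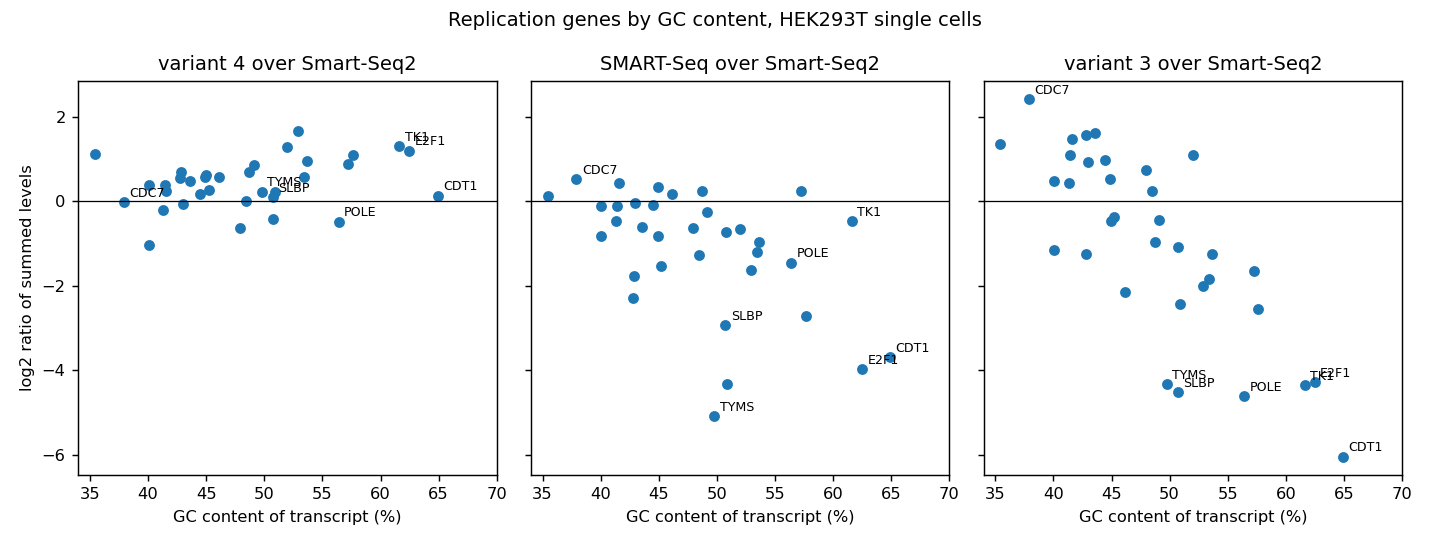
Log2 ratio of the summed level over that of Smart-Seq2 cells (vertical) by GC content of the transcript in percent (horizontal) for the 34 genes, in variant 4, SMART-Seq and variant 3 single HEK293T cells. CDC7 is at the upper left and CDT1, E2F1, TK1 and POLE at the lower right in variant 3, a slope not seen in variant 4.

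The ratios of single members to Smart-Seq2 reached less far from 0 in variants 1, 2 and 4 than in variant 3. The summed level was 6549 CPM in variant 1 (log2 ratio 0.23), 5897 CPM in variant 2 (0.08) and 7384 CPM in variant 4 (0.40), and no member had separate ranges in any of them, when 0.191%, 0.152% and 1.22% of all genes had. In variant 1, 0 members were more than 1 higher and 3 lower, when 3.37% and 5.25% of 7844 genes were: CDT1 (-1.70, 3.17 to 65.6 CPM with a median of 17.2), GINS3 (-1.10) and DBF4 (-1.05). CCNE2 (0.95), CLSPN (0.88), FEN1 (0.86) and TK1 (0.81) were highest, and CCNE2 was at -0.12 without variant 1 cell 5. Without Smart-Seq2 cell 6 the counts were 4 higher and 2 lower, and without variant 1 cell 2 or 4 they were 1 and 1. Variant 2 had 0 and 0, when 4.66% and 7.38% of 7881 genes passed, with ratios from -0.93 for DBF4 to 0.75 for CLSPN. There CDT1 (-0.73), UNG (-0.67) and GINS3 (-0.64) were also low and RRM1 (0.64), CDC45 (0.59) and POLA1 (0.50) also high, and POLA1 was at -0.16 without variant 2 cell 2. Variant 4 had 6 higher and 1 lower, when 6.15% and 6.91% of 8030 genes were. CCNE1 (0.66 to 183 CPM with a median of 44.1, log2 ratio 1.67), TK1 (280 to 557 CPM with a median of 427, 1.30), CDC45 (1.28) and E2F1 (1.20) were highest, and CCNE2 (1.11) and CHAF1A (1.10) were also above 1. GINS4 (-0.64), POLE (-0.49) and ORC1 (-0.42) were low. The median log2 ratio was 0.28 over the measured members in variant 1, 0.03 in variant 2 and 0.43 in variant 4, and over all genes -0.007, -0.03 and 0.05. Without Smart-Seq2 cell 1 the count above 1 in variant 4 was 3, and without variant 4 cell 2 it was 4. The CCNE1 ratio there was 0.96 without variant 4 cell 2 and 2.38 without Smart-Seq2 cell 4, and that of E2F1 was 0.89 without Smart-Seq2 cell 1. DBF4 (-1.04) was the 1 lower member, and its ratio rests on Smart-Seq2 cell 2: without that cell it was 0.09 in variant 1, 0.21 in variant 2, -0.01 in variant 3 and 0.10 in variant 4.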

How the data were processed

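The authors deposited 1 table per library with the count of reads per gene and an RPKM value, per the file headers. Alignment was with STAR to hg19, per the submitters' processing notes. The sources used here do not give the counting tool, its strand setting or the lengths behind the deposited RPKM. The 34 members and all gene lists were chosen with earlier results of these data known.

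Reads of entries with the same symbol were summed, and CPM was taken over reads assigned to genes. In the input series all genes passing filterByExpr entered edgeR's quasi-likelihood F test (edgeR 4.0.16 in R 4.3.3, TMM factors, Benjamini-Hochberg adjusted p under 0.05), with only the groups compared in each fit, and all 34 members passed the filter in each comparison. Alternatives used DESeq2 1.42.0 and limma 3.58.1 (log2(RPKM + 1)), among others in the last section. Replicate numbers were taken as pairs where the deviations of same-numbered libraries correlated over 0.1 in every one of 3 pairs, which held for 100 against 50 cells (0.14, 0.50 and 0.67) and for no other comparison. The 100-cell library 1 correlated more with 50-cell library 2 (0.44) than with its own number (0.14).

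Single-cell groups, each 1 sample, were compared as sums over cells with 1 CPM added to each side of a ratio and a minimum of 20 CPM in the higher group. Poisson intervals are 95% and cover counting error only, since PCR reads without molecular identifiers are not independent molecules. Length and GC content came from GENCODE v29 transcripts matched by accession or symbol for 98.9% of 13573 symbols. Named genes were for each test the 3 called members of lowest adjusted p per direction (2 for the interaction), the 4 with the largest ratios in each direction between cells, the 4 most and 2 least variable members, and the 5 highest and 3 lowest by RPKM. Other genes were named where a count needed them. Lists of 40 other replication genes, 25 mitosis genes and B cell, HEK293T, T cell, fibroblast and macrophage markers were summed or counted. Fibroblast markers summed to 5.89 to 184 CPM in Smart-Seq2 HEK293T cells and 2.22 to 72.8 CPM in DG-75 cells, and macrophage markers to 0 to 0.30 CPM and 0 to 256 CPM. Sequences were read from RefSeq promoters of GRCh38.p14, and no coordinate of hg19 is given. The 13 mouse libraries were not used.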

Additional observations from a re-analysis of the deposited data

Results flagged for a closer look

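In single-cell groups the highest or lowest cell was flagged where a gap criterion at the 95% level (Dixon) set it far from the rest. Its nominal rate of 1 group in 20 assumes normally distributed values. It was applied to CPM, which in single cells can be skewed, so that rate need not hold here. The flags are descriptions of cells and not tests of a group. Over the 34 members in 7 single-cell groups 35 of 238 pairs of member and group (14.7%) held such a cell, and 12 of the 65 pairs that the text names. The share over all genes was not computed, so this count says nothing particular to the members. In Smart-Seq2 HEK293T cells TK1 was at 412.78 CPM in cell 6. In variant 1 CCNE2 was at 433.38 CPM in cell 5. In variant 2 cell 3 was high for CDT1 (228.96 CPM) and RRM1 (1215.79 CPM), and cell 2 for POLA1 (370.09 CPM). In variant 3 cell 1 was high for SLBP (106.64 CPM) and CDT1 (3.4 CPM). In variant 4 CCNE1 was at 183.18 CPM in cell 2, and the lowest summed level was 4120.95 CPM. SMART-Seq cell 3 held nearly all reads of TYMS (3.18 CPM) and E2F1 (2.28 CPM) in its group. In DG-75, CHAF1B was at 207.32 CPM in cell 1 and UNG at 432.94 CPM in cell 3.

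The difference between cells and RNA changed with input, by the interaction term of edgeR's quasi-likelihood test with adjustment over all genes, for 9 members, 4 positive and 5 negative, when 7.23% and 10.7% of all genes were. With the length and GC trend removed 1 was positive and 5 negative, and GMNN reversed to -0.11. It was positive for PCNA (1.087), GMNN (0.979), RFC4 (0.749) and CLSPN (0.637) and negative for UHRF1 (-1.509), ORC1 (-1.289), POLE (-1.082), UNG (-0.807) and POLA1 (-0.792).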

How the results depend on the processing

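Of 305 values of the members named by the rule, under the alternatives, 281 kept their direction and side of the threshold, 21 lost the call and 3 reversed. The reversals came with removal of the length and GC trend: GMNN (-0.557) and RFC4 (-0.181) in 100 cells against 1 ng of RNA, and GMNN in the interaction (-0.11). Among all called members, named or not, this removal turned 7 of 18 in 100 cells against 1 ng and 1 of 13, GMNN, in 100 against 10 cells. Leaving out a library gave 155 of these values, of which 7 lost the call. With all 6 input groups in 1 fit the members called were 3 for 10 cells against 100 pg, 5 for 100 against 10 cells and 8 for 1 ng against 10 pg. That last comparison had 7 with DESeq2, 2 with limma and 0 with the replicate block, and 100 against 50 cells had 5 with the block. In 10 cells against 100 pg the block gave 10 in place of 8, with 4 higher in place of 2, and it moved no other total of called members by over 1.5 times. The samples of these comparisons share only a number. Without 1 library the counts ran from 14 to 25 for 100 cells against 1 ng, 3 to 8 for 10 cells against 100 pg, 8 to 19 for 100 against 10 cells, 0 to 22 for 1 ng against 10 pg, 4 to 12 for the interaction, and stayed at 0 for 100 against 50 cells and for 1 ng against 100 pg. The log2 ratio of the summed level moved with equal weights, TMM factors and RPKM as follows: DG-75 to 0.493, 0.485 and 0.497, SMART-Seq to -0.667, -0.338 and -0.705, and variant 2 to 0.134, 0.116 and 0.087. It moved with TMM and RPKM to 0.746 and 0.002 in variant 3 and to 0.341 and 0.386 in variant 4, and with equal weights and RPKM to 0.21 and 0.158 in variant 1. Without DG-75 cells 6 and 7, an alternative chosen after seeing the data like the counts with each cell left out, it was 0.961. Leaving out 1 cell gave 0.085 (without DG-75 cell 2) to 0.687 in DG-75, -0.839 to -0.581 in SMART-Seq, 0.091 to 0.337 in variant 1, -0.012 (without Smart-Seq2 cell 1) to 0.178 in variant 2, -0.006 (without variant 3 cell 1) to 0.284 in variant 3 and 0.313 to 0.517 in variant 4. The cause of these shifts was not tested. Groups of 2 or 3 libraries limit the tests, and comparisons of single-cell groups have no test.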
